A study of Homo sapiens with 6 samples.

Results

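The Agilent catalogue probes whose identifiers start with A_19_P, A_21_P or A_22_P were examined on 6 arrays of NB4 cells. These prefixes are the ones that the manufacturer uses mostly for long intergenic and other non-coding transcripts. They took in 9288 of the 138405 probes that are not controls, made up of 232 A_19_P, 5351 A_21_P and 3705 A_22_P probes. Each is a single-stranded DNA oligonucleotide of 60 bases, 8499 of them on 1 spot of the array and 789 on 10 spots, and no sequence was shared between members. They were set against 28261 probes with the prefixes A_23_P, A_24_P, A_32_P and A_33_P, which the manufacturer uses mostly for coding genes and which are called coding-prefix probes here. The remaining 100856 probes are custom designs.

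NB4 is a human cell line derived from acute promyelocytic leukaemia, a disease in which granulocyte precursors stop maturing at the promyelocyte stage. ATPR is a synthetic derivative of all-trans retinoic acid, the retinoid that lets these cells mature. The ATPR-72h group (3 arrays) and the Solvent-72h group (3 arrays) hold total RNA taken at 72 h, and the labels add that the cells of both groups were irradiated before they were diluted in medium. The labels state neither the ATPR concentration nor the radiation dose. The design text speaks of independent experiments, all in 1 cell line. In RNA of whole cultures, fewer cells of a kind and less RNA per cell cannot be told apart.

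Long non-coding RNAs are transcripts that are longer than small RNAs and have no recognised protein product. Many lie between genes, run across a coding gene on the opposite strand, or start from the same promoter as a coding gene and run away from it. They are as a class less abundant and more restricted to single cell types than messenger RNAs. In granulocyte maturation some of them act on chromatin regulators or on neighbouring genes, while for most no function is known.

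The files name no transcript for any of these probes, so each one is given by its identifier and its sequence. The first set of sequences holds probes with the largest increases and decreases among those detected on every array without overlap of the groups. Runs of at least 4 consecutive G or C are in capitals, since the content of G and C went with detection as described below.
A_22_P00007124: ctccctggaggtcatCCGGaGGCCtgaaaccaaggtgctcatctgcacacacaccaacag
A_22_P00025460: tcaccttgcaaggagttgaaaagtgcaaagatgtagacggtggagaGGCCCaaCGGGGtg
A_21_P0000513: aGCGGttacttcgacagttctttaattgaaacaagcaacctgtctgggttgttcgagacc
A_19_P00804072: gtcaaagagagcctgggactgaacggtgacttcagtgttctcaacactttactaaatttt
A_21_P0010660: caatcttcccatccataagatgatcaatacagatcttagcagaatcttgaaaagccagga
A_19_P00802201: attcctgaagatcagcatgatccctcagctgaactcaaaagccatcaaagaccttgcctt
A_22_P00004960: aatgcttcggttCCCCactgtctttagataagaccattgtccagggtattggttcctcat

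The second set holds probes detected throughout one group, on 3 of 3 arrays, and on none of the other, with the same use of capitals. The first pair was detected in the ATPR-72h group and the last probe in the Solvent-72h group.
A_22_P00004398: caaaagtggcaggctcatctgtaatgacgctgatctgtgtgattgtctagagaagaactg
A_21_P0010289: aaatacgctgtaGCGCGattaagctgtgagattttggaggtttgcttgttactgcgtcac
A_22_P00010301: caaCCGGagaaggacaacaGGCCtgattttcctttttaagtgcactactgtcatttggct

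The third set holds 2 of the 5 brightest probes, again with runs of G and C in capitals. They show the base composition found at the top of the signal range.
A_22_P00024803: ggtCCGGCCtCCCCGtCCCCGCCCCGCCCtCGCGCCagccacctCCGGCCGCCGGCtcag
A_22_P00025801: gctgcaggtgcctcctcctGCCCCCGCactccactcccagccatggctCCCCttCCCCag

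A minority of these probes was detected, and detection was lower after ATPR. The share of the 9288 probes well above background was 32.4%, 29.8% and 33.2% on the 3 Solvent-72h arrays and 24.2%, 24.4% and 24.6% on the 3 ATPR-72h arrays. The groups did not overlap. The mean was 31.8% ± 1.81 (SD, n = 3) in Solvent-72h and 24.4% ± 0.21 (SD, n = 3) in ATPR-72h, a difference of -7.43 percentage points (exact permutation test, two-sided p = 0.1, the smallest that 3 against 3 arrays allow). Detection fell over the whole array as well. Of all 138405 probes, 35.7%, 33.3% and 36.3% were detected on the Solvent-72h arrays and 27.4%, 27.3% and 26.6% on the ATPR-72h arrays.

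The fall was present in each of the 3 prefixes. A_19_P probes were detected most often, at 56.3% ± 2.63 in Solvent-72h and 42.5% ± 1.00 in ATPR-72h (SD, n = 3 each). The share of A_21_P probes was 32.0% ± 1.86 and 24.3% ± 0.08, and that of A_22_P probes was 29.95% ± 1.69 and 23.4% ± 0.60. In every prefix each ATPR-72h array lay below each Solvent-72h array.

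Coding-prefix probes were detected more often. Their shares were 58.9% ± 2.09 in Solvent-72h and 46.6% ± 2.42 in ATPR-72h (SD, n = 3 each), a difference of -12.3 percentage points. The gap between the 2 classes, taken within each array, narrowed from -27.1 ± 0.29 to -22.2 ± 2.63 percentage points (exact permutation p = 0.1, two-sided). This change of 4.89 points was 0.42 points when detection meant positive and significant against background. As a ratio the 2 shares did not separate the groups, at 0.54 ± 0.01 in Solvent-72h and 0.52 ± 0.03 in ATPR-72h (exact permutation p = 0.5, two-sided). Beside these shares, the unscaled signal of the arrays also differed: the 75th percentile over probes detected on every array was 8.85 ± 0.16 log2 units in Solvent-72h and 7.87 ± 0.15 in ATPR-72h (SD, n = 3 each). Its part in the fall of the shares was not tested.

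Over all 6 arrays, 5826 of the 9288 probes were never well above background and 1873 always were. The same counts for the coding-prefix probes were 10146 never and 11259 always. Among the members, 351 were detected on all 3 Solvent-72h arrays and on no ATPR-72h array, and 33 showed the reverse pattern. Coding-prefix probes had 2025 and 189 of these patterns.

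The signal of the detected members was low. Levels are given as log2 of the processed signal minus that array's 75th percentile over probes detected on every array, so that 0 stands at that percentile. A signal also depends on how well an oligonucleotide binds, so a median over a class is a description of brightness and not a count of transcripts. Over the 1873 members detected on every array, the mean level ran from -3.82 at the 10th percentile through a median of -1.91 to 1.69 at the 90th percentile, with a highest value of 10.28. The same points for the coding-prefix probes were -3.40, -1.22 and 2.09.

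The median level of the members was -2.02, -1.98 and -1.99 on the Solvent-72h arrays and -2.07, -1.82 and -1.63 on the ATPR-72h arrays. The groups overlapped, with means of -1.996 ± 0.026 and -1.84 ± 0.22 (SD, n = 3 each; exact permutation p = 0.4, two-sided). ATPR-72h replicate 3, the only array of its slide, had the highest median. The gap between the member and coding-prefix medians was -0.89, -0.82 and -0.87 in Solvent-72h and -0.90, -0.57 and -0.20 in ATPR-72h. In ATPR-72h replicates 2 and 3 it was narrower than on any Solvent-72h array, and in ATPR-72h replicate 1 it was not (exact permutation p = 0.4, two-sided).

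Of the 9288 members, 2684 could be tested, having passed the detection criterion throughout at least 1 group. Among them 361 (13.5%) were higher and 461 (17.2%) were lower in ATPR-72h than in Solvent-72h, at an adjusted p-value below 0.05 and a fold change of at least 2 in the limma fit across all 44840 tested probes. Over all tested probes 12.0% were called higher and 23.8% lower. The share of members called higher was thus close to the background and the share called lower was below it. The direction rests on the scale of the arrays: scaled to the E1A spike-in probes, RNA standards added before labelling, 68 members were called higher and 1566 lower, and with the 75th percentile taken over all probes the counts were 484 and 412. Of all member calls, 43.9% were higher in the main scale, 54.0% with the 75th percentile over all probes and 4.16% on the spike-in scale.

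All 3 Solvent-72h arrays lay on 1 slide, ATPR-72h replicates 1 and 2 on another and ATPR-72h replicate 3 on the last. With slide as a random block, 309 members were called higher and 347 lower. Because no slide held both groups, slide and group cannot be told apart.

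The median log2 difference of the tested members was 0.15, while that of the coding-prefix probes was -0.24 and that of all tested probes -0.04. Of 15959 tested coding-prefix probes, 2162 (13.5%) were higher and 4726 (29.6%) were lower. The members therefore had a share of increases like that of the coding-prefix probes and a smaller share of decreases. On the spike-in scale both medians were negative, at -1.19 for the members and -1.58 for the coding-prefix probes. The member median lay above the coding-prefix median under the main setting and all 20 alternatives, by 0.18 to 0.56 log2 units. Not all of these could have changed the gap. Scalings by a constant per array, such as the spike-in scale, move both medians alike, and the replicate block leaves the differences as they are. The gap was 0.39 in each of these, as in the main setting. Probes are not replicates, so no p-value is given for this difference between classes.

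The filter on detection shapes these counts. Of the 461 members called lower, 223 were undetected on every ATPR-72h array. Over all tested probes this held for 4184 of 10667 called lower, and over coding-prefix probes for 1669 of 4726. The 33 members detected on all 3 ATPR-72h arrays and no Solvent-72h array were all called higher, as were all 189 such coding-prefix probes. Over the 1873 members detected on every array, 283 were called higher and 153 lower, with a median log2 difference of 0.33. Over all 31233 probes of that kind 13.9% were called higher and 14.2% lower, with a median of 0.22. The coding-prefix probes under the same condition gave 1806 higher and 2084 lower of 11259, with a median of 0.10. The 3 arrays of each group did not overlap for 56.6% of tested members, against 59.0% of all tested probes and 65.2% of coding-prefix probes.

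The prefixes differed among themselves. Of 122 tested A_19_P probes, 10 were called higher and 38 lower, where 12.0% and 23.8% of all tested probes were. The 1567 A_21_P probes gave 232 higher and 321 lower. The 995 A_22_P probes gave 119 higher and 102 lower, so that decreases made up 10.3% of A_22_P probes, 20.5% of A_21_P probes and 31.1% of A_19_P probes. The A_21_P share was near that of all tested probes. The median log2 differences followed the same order, at 0.21, 0.10 and -0.16. The coding-prefix probes differed among themselves too, with decreases in 31.8% of A_23_P, 36.1% of A_24_P, 40.7% of A_32_P and 23.4% of A_33_P probes. The A_33_P share was thus near that of A_21_P, and the A_19_P share lay within the range of the coding prefixes.

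The comparison was repeated at matched signal, since dim and bright probes are called at different rates. Tested members were sorted by mean level into 10 groups of equal size, and coding-prefix probes of the same range were weighted to the same distribution. The share called lower was 17.2% in the members and 32.0% in the matched coding-prefix probes. It was below the coding-prefix share in 10 of 10 groups. The share called higher was 13.5% against 12.7%, and was above in 6 of 10 groups.

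The dimmest group stood apart from the rest. There 51.3% of 269 members and 66.5% of 1184 coding-prefix probes were called lower, with median log2 differences of -1.21 and -1.71. In the next group the shares were 16.8% and 41.6%, and the medians were 0.07 and -0.84. In the brightest group they were 8.92% and 17.8%, with medians of 0.34 and 0.17. A probe in the dimmest group had to pass the detection criterion throughout 1 group to be tested at all, and more probes were detected in Solvent-72h.

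For the share called higher, the sign of the class difference changed with the matching. When the probes were matched on the Solvent-72h mean instead of the mean of both groups, 13.5% of members and 15.1% of coding-prefix probes were called higher, and 17.2% and 28.5% were called lower. Among probes detected on every array the shares were 15.1% and 15.8% higher, and 8.17% and 16.5% lower. The smaller share of decreases thus kept its sign in both, and the share of increases did not.

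Detection rose with the share of G and C in the probe. Of 2117 members with at most 35% G and C, 6.19% were detected on every array. The share was 11.9% of 1871 members up to 40%, 20.3% of 3809 up to 45%, 34.2% of 301 up to 50% and 54.1% of 1190 above 50%. In the coding-prefix probes it rose from 17.2% to 65.7% over the same classes. The median content of G and C was 43.3% in both sets, while 12.8% of members and 21.2% of coding-prefix probes had more than 50%.

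Of the 4 bases, C went most closely with detection. Over the 9288 members, which share the same 6 arrays, the count of C in the sequence and the number of arrays on which the probe was detected had a Spearman rho of 0.36. The rho was -0.33 for A, 0.05 for G and -0.04 for T. The polyadenylation signal AATAAA, which lies near the end of most messenger RNAs, was present on the given strand in 7.53% of members and 7.20% of coding-prefix probes.

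Calls followed the base content too. Among tested members the share called lower was 31.9% in the class with at most 35% G and C and 6.09% in the class above 50%, and the shares called higher were 9.45% and 14.8%. In the coding-prefix probes the decreases ran from 45.2% to 13.1%. The median log2 difference of tested members was -0.37 in the lowest of these classes and 0.36 in the highest. Over members detected on every array it was 0.24 and 0.40, and over such coding-prefix probes -0.12 and 0.33. With probes matched on signal and on the content of G and C together, 17.2% of members and 30.7% of coding-prefix probes were called lower, and 13.5% and 13.1% were called higher. The member share of decreases was below the coding-prefix share in 24 of these 25 classes.

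The strongest increase among members detected on every array was that of A_22_P00007124, whose sequence opens the first set. Its level was -3.29, -2.84 and -3.13 on the Solvent-72h arrays and 2.60, 2.78 and 2.90 on the ATPR-72h arrays. The groups were far apart. The log2 difference was 5.85 (SE 0.21, adjusted p = 6.22e-06, limma), a 57.5-fold increase.

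A_22_P00025460 moved from -3.92, -3.32 and -3.48 to 1.07, 0.97 and 0.96, a log2 difference of 4.57 (SE 0.22, adjusted p = 1.67e-05). In both of these probes the ATPR-72h arrays lay close together. Among A_21_P probes detected on every array the largest increase was that of A_21_P0000513, from -1.84, -1.27 and -1.92 to 2.46, 2.66 and 2.28 (log2 difference 4.15, SE 0.24, adjusted p = 3.11e-05).

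A_21_P0000171 (log2 difference 4.05), A_21_P0014948 (3.93) and A_21_P0000597 (3.57) followed, and then the A_22_P probes A_22_P00024413 (3.52) and A_22_P00016082 (2.80). All 5 had an adjusted p of at most 0.000127. No overlap between the groups was a condition for being named among the largest calls. A_21_P0000597 was the least even of them, with ATPR-72h levels of 0.90, 0.57 and -0.20.

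The largest A_19_P increase was smaller than the largest of either other prefix. A_19_P00804072 went from -1.82, -2.03 and -1.92 to 1.57, 1.44 and 1.12 (log2 difference 3.30, SE 0.20, adjusted p = 3.61e-05). A_19_P00812340, measured on 10 spots, was bright in both groups, at 3.83, 4.02 and 3.78 in Solvent-72h and 6.33, 6.24 and 6.12 in ATPR-72h (log2 difference 2.35, SE 0.18, adjusted p = 9.22e-05). A_19_P00319532 had only a modest change and the widest spread of the 4 named A_19_P increases, with Solvent-72h levels of -3.30, -2.50 and -3.03 and ATPR-72h levels of -1.88, -1.55 and -1.11 (log2 difference 1.43, adjusted p = 0.00669). On the spike-in scale neither A_19_P00319532 nor A_19_P00318261 passed the threshold, and with normexp background correction A_19_P00319532 was at 0.93 and did not reach a fold change of 2.

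The largest decrease among members detected on every array was that of A_21_P0010660. It was level across the Solvent-72h arrays, at 2.92, 2.97 and 2.85, and scattered across the ATPR-72h arrays, at -1.64, -2.26 and -3.78. The log2 difference was -5.47 (SE 0.50, adjusted p = 0.000176), and the groups were far apart in spite of the scatter.

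A_19_P00802201, on 10 spots, fell from 1.48, 1.33 and 1.52 to -2.75, -2.83 and -3.15 (log2 difference -4.36, SE 0.20, adjusted p = 1.45e-05). Both of its groups were tight. The other named A_19_P decreases were A_19_P00810205 (-3.87), A_19_P00805291 (-3.30) and A_19_P00812587 (-3.25). The last of these stayed above the 75th percentile in both groups, at 3.68 ± 0.18 in Solvent-72h and 0.43 ± 0.15 in ATPR-72h (SD, n = 3 each).

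Among A_21_P probes, A_21_P0011052 (log2 difference -3.82), A_21_P0010899 (-3.81) and A_21_P0011376 (-3.54) followed A_21_P0010660. A_21_P0011376 had the widest spread of any probe named for its change, with ATPR-72h levels of 1.15, 0.24 and -1.48 against 3.51, 3.32 and 3.71 (adjusted p = 0.00286). In A_21_P0010660 and A_21_P0011376 alike, ATPR-72h replicate 3, the array alone on its slide, was the lowest.

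The A_22_P decreases were smaller. A_22_P00004960 went from -0.56, -1.30 and -0.55 to -4.02, -3.37 and -3.13 (log2 difference -2.70, SE 0.32, adjusted p = 0.000551). A_22_P00013137 had nearly the same change, from 0.69, 0.19 and 0.52 to -2.73, -2.08 and -1.85 (log2 difference -2.69, SE 0.28, adjusted p = 0.000312). A_22_P00018048 (-1.95) and A_22_P00007678 (-1.80) completed the list for this prefix. With normexp background correction these last probes were at -0.88 and -0.64 and no longer reached a fold change of 2.

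Members that were detected in only one group gave fold changes that are bounds on the main scale. For these, the brighter group's mean is set against a floor for each dim array, namely the dimmest detected probe of that array or the probe itself, whichever read higher. A_22_P00004398 read -6.26, -6.42 and -5.86 in Solvent-72h, where it was never well above background, and 1.74, 2.51 and 2.82 in ATPR-72h. It was at least 288-fold higher in ATPR-72h (adjusted p = 8.2e-06), the largest bound of all members in either direction. Over the settings its log2 difference ran from 4.82 to 8.84, so the bound did not hold under each of them.

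A_21_P0012426 was at least 36.1-fold higher and A_21_P0010289 at least 26.6-fold higher in ATPR-72h. In A_21_P0010289 the ATPR-72h arrays read -1.01, -1.06 and -1.19. A_22_P00021833 was at least 13.6-fold higher. Over the settings the smallest log2 differences were 2.17 for A_21_P0012426, 1.87 for A_21_P0010289 and 1.26 for A_22_P00021833, all smaller changes than the bounds. No A_19_P probe was detected on all 3 ATPR-72h arrays and no Solvent-72h array.

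In the other direction A_21_P0013512, on 10 spots, read -0.18, -0.15 and -0.21 in Solvent-72h and was not well above background on any ATPR-72h array, which puts it at least 25.2-fold lower (adjusted p = 2.25e-05). Its Solvent-72h arrays lay close together. A_22_P00010301 was at least 10-fold lower and A_22_P00018544 at least 5.56-fold lower. Over the settings the smallest decreases were -2.42 for A_21_P0013512, -1.32 for A_22_P00010301 and -1.12 for A_22_P00018544 in log2, again smaller than the bounds. The A_19_P probes with the largest bounds were A_19_P00322687, at least 4.62-fold lower, and A_19_P00801042, at least 4.44-fold lower. With normexp background correction both were under a fold change of 2, at log2 differences of -0.68 and -0.75.

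The 5 brightest members all had the prefix A_22_P and all were rich in G and C. A_22_P00024803, with 85.0% G and C, read 9.76, 10.11 and 9.81 in Solvent-72h and 10.43, 10.63 and 10.92 in ATPR-72h. A_22_P00002017 (76.7% G and C), A_22_P00002736 (70.0%), A_22_P00016688 (83.3%) and A_22_P00025801 (71.7%) had mean levels between 9.17 and 9.64 in Solvent-72h and between 10.13 and 10.58 in ATPR-72h. In all 5 the groups did not overlap, the log2 differences lay between 0.77 and 0.98, and none reached a fold change of 2. All 5 differences turned negative on the spike-in scale, and those of A_22_P00024803 and A_22_P00002736 did so with quantile normalization as well.

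Overlapping probes on the same strand gave a check of single values, since they read the same stretch of RNA. Probes on opposite strands read different RNA, so their values are only set side by side. Whether each probe reads its own strand alone was not tested. Of the members, 304 shared at least 30 bases on the same strand with another probe, in 279 pairs. In the 59 pairs in which both probes were detected on every array, the log2 differences of the 2 probes had a Pearson r of 0.90 across pairs, which share arrays and sequence and are not replicates. Their median gap was 0.19 log2 units and the widest 1.41, and 57 of 59 had the same sign. Where a member was called, in 45 pairs, the partner was called the same way in 34 and the opposite way in none of these pairs.

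A pair of opposite-strand probes and a same-strand pair are shown with their shared stretch in capitals, because they set a non-coding prefix beside a coding one. The first of the opposite-strand probes is the reverse complement of the other over the capitals.
A_19_P00318261: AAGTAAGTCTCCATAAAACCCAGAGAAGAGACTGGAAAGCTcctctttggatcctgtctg
A_33_P3658861: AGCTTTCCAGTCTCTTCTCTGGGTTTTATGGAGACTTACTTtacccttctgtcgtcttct
A_21_P0014000: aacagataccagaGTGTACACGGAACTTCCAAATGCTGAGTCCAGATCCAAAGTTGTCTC
A_33_P3313920: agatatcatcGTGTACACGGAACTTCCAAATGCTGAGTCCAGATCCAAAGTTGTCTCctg

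The opposite-strand pair shared 41 bases. A_19_P00318261 read 0.42, 0.77 and 0.16 in Solvent-72h and 1.62, 2.07 and 2.03 in ATPR-72h, a log2 difference of 1.45 (SE 0.24, adjusted p = 0.0024). A_33_P3658861, on the other strand, read -1.16, -0.84 and -1.32 and then 0.14, 0.23 and 0.32, a log2 difference of 1.34 (SE 0.20, adjusted p = 0.00173). The probes of both strands read higher in ATPR-72h on the main scale, by amounts within the SE of each other. On the spike-in scale neither was called, with log2 differences of 0.11 (adjusted p = 0.648) and -0.0032 (adjusted p = 0.989).

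The same-strand pair shared 47 bases. A_21_P0014000 and A_33_P3313920 were not well above background on any Solvent-72h array and were both called higher, at least 10.5-fold (adjusted p = 4.01e-05) and at least 6.59-fold (adjusted p = 1.88e-05) by the floor given above. A_19_P00805548 and A_33_P3219256 have the same 60 bases under 2 identifiers. Neither was detected on any ATPR-72h array, and they were at least 1.38-fold lower (adjusted p = 0.0384) and at least 1.501-fold lower (adjusted p = 0.0673), so that only the first was called.

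Opposite-strand partners were found for 27 members, in 28 pairs. In the 11 pairs detected on every array the sign was the same in 11, the median gap was 0.17 log2 units and the widest 0.50. Both probes were tested in only 13 of the 28 pairs. The member was called in 4 pairs, with the partner called the same way in these. Over all tested probes 12.0% were called higher and 23.8% lower. A_22_P00024420 and A_23_P107412 shared 40 bases and were both lower, by log2 differences of -1.18 and -1.40. A_22_P00014894 and the custom probe opposite to it were also both lower, at -1.32 and -1.77. A_22_P00019621 is the exact reverse complement of A_23_P64630 over 60 bases. Its log2 difference of -0.66 (adjusted p = 0.181) did not pass the test while that of A_23_P64630 did, at -1.52 (adjusted p = 0.000928). A_22_P00019621 was dim, with mean levels of -4.29 in Solvent-72h and -4.95 in ATPR-72h, and was well above background on only 1 ATPR-72h array. The means of A_23_P64630 were 0.53 and -0.98.

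A small number of members could be placed in the genome. RefSeq sequences from 250 bases before to 50 bases after the start of each annotated gene (GRCh38.p14) held the exact 60 bases of 99 members, 50 on the gene's own strand and 51 on the opposite strand, with 2 of them in both. Of the 98 with a single position, 33 (33.7%) lay within an annotated long non-coding RNA gene on the strand they read along, 15 (15.3%) within a protein-coding gene on that strand and 50 (51.0%) within no gene on that strand. Of 151 coding-prefix probes placed in the same way, 11 (7.28%) lay in a long non-coding RNA gene, 66 (43.7%) in a protein-coding gene and 74 (49.0%) in no gene on their strand. A position within genes of both kinds on that strand was counted as protein-coding. In both sets the largest share thus lay in no annotated gene on the probe's strand. Where there was one, it was more often of the labelled class. Most of each window lies before a gene's start and so outside that gene, which favours positions in no gene. These shares describe only the probes placed in this way and not either class as a whole.

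Of the 33 members counted in annotated long non-coding RNA genes, 15 were never well above background and 14 were tested. Of those tested, 1 was called higher and 4 lower, beside 12.0% and 23.8% of all tested probes. Sequences of 5 placed members follow, chosen after their values were seen because they lie at the start of a known gene and changed. Capitals mark the bases past an annotated start of that gene, and sequences with none lie wholly before that start. A_22_P00002540 lies before an annotated NARF start, and the NARF gene as annotated also covers it.
A_21_P0000561: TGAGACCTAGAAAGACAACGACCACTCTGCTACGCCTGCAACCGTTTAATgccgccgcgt
A_22_P00012112: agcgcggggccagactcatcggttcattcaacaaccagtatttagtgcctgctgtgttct
A_22_P00002540: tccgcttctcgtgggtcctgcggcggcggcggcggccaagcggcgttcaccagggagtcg
A_22_P00003109: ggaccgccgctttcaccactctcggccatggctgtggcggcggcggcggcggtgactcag
A_22_P00022486: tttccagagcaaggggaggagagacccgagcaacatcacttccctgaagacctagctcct

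A_21_P0000561 lies at chr20:5119909-5119968 and reads along the + strand, that of PCNA-AS1, opposite to the start of PCNA, which encodes the sliding clamp of the DNA replication fork. It covers positions -10 to 50 relative to an annotated PCNA start. Its level was -1.50, -1.61 and -1.50 in Solvent-72h and -3.56, -4.67 and -3.21 in ATPR-72h. The log2 difference was -2.27 (SE 0.37, adjusted p = 0.00228), and it was detected on 3 Solvent-72h and 2 ATPR-72h arrays.

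A_22_P00012112 reads along LIPT2-AS1 at chr11:74493853-74493912 on the + strand, opposite to LIPT2, which encodes a lipoyl transferase. It fell from -2.06, -2.74 and -2.04 to -3.73, -3.58 and -3.37 (log2 difference -1.28, SE 0.25, adjusted p = 0.00554). The groups did not overlap. The other lower members in long non-coding RNA genes were A_22_P00004064 in LRRK1-AS1 (chr15:101065420-101065479, - strand) and A_22_P00012454 in TMEM109-DT (chr11:60913960-60914019, - strand), neither of them well above background on any ATPR-72h array. They were at least 1.58-fold and at least 1.16-fold lower, with adjusted p-values of 0.00419 and 0.000578.

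The member called higher in an annotated long non-coding RNA gene was A_22_P00002540 in NARF-AS2, at chr17:82458417-82458476 on the - strand, opposite to NARF. It was one of the bright probes, at 7.40, 7.59 and 7.28 in Solvent-72h and 8.68, 8.72 and 8.55 in ATPR-72h (log2 difference 1.23, SE 0.19, adjusted p = 0.00169). A_22_P00003109 lies at chr9:83707651-83707710 on the + strand, between positions -184 and -125 of UBQLN1-AS1 and within UBQLN1, a ubiquitin receptor gene that runs the other way. It read 6.51, 6.68 and 6.46 and then 7.96, 7.87 and 7.65 (log2 difference 1.28, SE 0.19, adjusted p = 0.00152).

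Of 27 tested members in the start windows of protein-coding genes, 3 were called higher and 6 lower, beside 12.0% and 23.8% of all tested probes. These calls include A_22_P00002540, A_21_P0000561, A_22_P00012112 and A_22_P00012454, already described in long non-coding RNA genes. A_22_P00019592, at chr1:151763384-151763443 on the - strand, lies in MRPL9, a mitochondrial ribosomal protein gene, opposite to the start of OAZ3. It read 2.69, 2.64 and 2.31 in Solvent-72h and 3.60, 3.72 and 4.10 in ATPR-72h, a log2 difference of 1.26 (SE 0.22, adjusted p = 0.00324) without overlap of the groups. A_22_P00022486, at chr10:73247428-73247487 on the - strand, reads in the direction of DNAJC9, a histone co-chaperone gene, and overlaps DNAJC9-AS1 on the other strand, at positions -232 to -173. It read -3.11, -3.53 and -2.92 in Solvent-72h, was not well above background on any ATPR-72h array, and was at least 3.00-fold lower (adjusted p = 0.00113). A_19_P00322687, at chr4:52751563-52751622 on the - strand, lies at positions -197 to -138 of ERVMER34-1, a gene derived from an endogenous retrovirus. It was one of the A_19_P probes with the largest bounds.

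Among the placed members that were bright, A_22_P00007897 lies before HSP90AA1, the gene of an inducible heat shock protein, at chr14:102139915-102139974 on the - strand. It read 7.99, 8.33 and 7.98 in Solvent-72h and 8.73, 8.91 and 8.92 in ATPR-72h, a log2 difference of 0.76 (SE 0.20, adjusted p = 0.0169) that was under the fold threshold. A_22_P00025801, whose sequence is in the third set, lies in TMEM210 at chr9:137171887-137171946 on the - strand. In all, 5 of the 43 placed members that were tested were called higher and 8 lower, with a median log2 difference of 0.20. Those counts are close to what the shares over all tested probes, 12.0% and 23.8%, give.

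Replicate arrays differed by similar amounts in both classes. The median SD between the 3 arrays of a group was 0.19 log2 units in Solvent-72h and 0.29 in ATPR-72h for members detected on every array, and 0.18 and 0.27 for coding-prefix probes. Members on 10 spots had a median SD between spots of one array of 0.13 log2 units, against 0.10 for coding-prefix probes. The ATPR-72h arrays were thus the more variable group for both classes. They lay on more than 1 slide while the Solvent-72h arrays shared 1, so slide and group cannot be told apart in this spread either.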

How the data were processed

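Cy3-labelled copies of total RNA from NB4 cells were hybridised to 6 arrays. The authors deposited the intensity of each spot, as read by Agilent Feature Extraction 10.7.1.1, and normalized log2 values whose method is not fully given in the sources used here. The file headers name hg19 and give no probe positions, so positions come from exact matches to RefSeq windows of GRCh38.p14, a step added after the files were seen.

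Outlier spots were left out, and log2 processed signals were averaged per probe. A probe counted as well above background where at least 50% of its spots did. Each array was scaled by the 75th percentile of the 31233 probes detected on all 6 arrays. Tests used limma 3.58.1 under R 4.3.3 (lmFit, eBayes, Benjamini-Hochberg adjustment) on the 44840 probes detected throughout at least 1 group. Probes were called at an adjusted p-value below 0.05 and a fold change of at least 2. Python 3.11.15, numpy 2.4.6 and pandas 2.3.3 handled tables. On simulated data with 44811 probes, 58 of 100 probes changed by a log2 of 2 and 73 of 100 changed by a log2 of 3 were called, with 3 unchanged probes. No other simulated probe was changed, whereas 12.0% of the real tested probes were called higher and 23.8% lower. The adjusted p-value depends on the share of changed probes, so these rates do not carry over to the real data. The number of arrays limits the precision.

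Named probes were, per prefix, the 4 largest calls in each direction detected on all 6 arrays, and the 2 largest bounds in each direction. The largest calls also had to show no overlap between the groups. Also named were the 5 brightest members and probes overlapping one of those largest calls by at least 30 bases. Probes named for their place or their overlap otherwise were chosen after their values were seen. The members and lists were chosen with earlier results of these data known. Same-numbered arrays did not deviate together (correlations of 0.25, -0.07 and -0.28), so replicate numbers were treated as names. Alternatives were other scalings, normexp, the authors' log2 values, 2 filters, outliers kept, detection on all spots of a probe, blocks, the methods' t-test and each array left out, and, added after seeing the data, matching on signal and G and C together. One of the probes named by the rule on bounds is not reported here. Known transcripts and marker genes could not be looked up by probe and were not analysed here.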

Additional observations from a re-analysis of the deposited data

Results flagged for a closer look

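The E1A spike-in probes, which lie outside the comparison of the members, differed between the groups. Their mean, relative to the percentile that set the main scale, was -0.63, -0.43 and -0.72 log2 units on the Solvent-72h arrays and 0.75, 0.87 and 0.62 on the ATPR-72h arrays. The difference was 1.34 log2 units (exact permutation p = 0.1, two-sided, the smallest possible), and it is the amount by which every log2 difference in the text moves down on the spike-in scale. Which of the scales follows the RNA content of the cells was not tested.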

How the results depend on the processing

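Counts of member calls moved by over 1.5 times under 4 settings. Scaled to the E1A spike-in probes they were 68 higher and 1566 lower, with normexp background correction 128 higher and 109 lower, without a filter on dim probes 2298 higher, and with probes detected on all 6 arrays 155 lower. With each array left out in turn they were 317 to 491 higher and 375 to 534 lower, the fall in the share of members detected was -8.45 to -6.73 percentage points, and the change of the gap to the coding-prefix share was 3.44 to 6.002 points. That change was 0.42 points when detection meant positive and significant against background. The difference in the share called higher at matched signal, 0.78 points in the main setting, was -1.64 points on the Solvent-72h mean, -0.66 points with probes detected on all 6 arrays and 0.31 points with G and C matched too. The difference in the share called lower was -8.29 points with probes detected on all 6 arrays. The cause was not tested, except that the last filters test fewer probes. With the replicate block 353 members were higher and 447 lower, and the replicate number is only a name here. The methods' t-test called 356 higher and 431 lower, and 317 and 351 after Benjamini-Hochberg adjustment.

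Of the values of named probes under the alternatives, 740 kept their sign and side of the threshold, 7 fell below it, 11 rose above it and 12 changed sign. All sign changes were in the 5 brightest probes. A_22_P00024803 was at -0.15 with quantile normalization, -0.57 on the spike-in scale, -0.0194 with normexp and -0.15 in the authors' values. A_22_P00002736 was at -0.0333, -0.46, -0.0879 and -0.0533 under these settings. On the spike-in scale A_22_P00002017 was at -0.36, A_22_P00016688 at -0.43 and A_22_P00025801 at -0.38, and with normexp A_22_P00016688 was at -2.2e-15, which is 0 to rounding and was counted as a change of sign. Signal over background limits the 5826 members that were never detected, for which no change could be measured.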
